A study of Mus musculus with 12 samples.

Results

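The expression of 10 immediate early genes was examined in LSK cells (Lin-Sca+Kit+) that donor marrow had given rise to in mice, the fraction that holds haemopoietic stem cells and multipotent progenitors, with and without BCR::ABL1. The genes were chosen by name (Fos, Fosb, Jun, Junb, Egr1, Ier2, Atf3, Dusp1, Zfp36 and Nr4a1), with earlier results of these data known. They were found by Ensembl identifier among 56748 identifiers. All 10 passed the filter on low counts, among 18438 genes tested. Every library came from CD45.2+ cells of SCLtTA/BCR-ABL double transgenic (DTG) donors, in which the tetracycline-off transactivator tTA is driven by SCL and switches on human BCR::ABL1 when tetracycline (TET) is absent. The marrow had been transplanted into B6.SJL (CD45.1) recipients aged 8 to 12 weeks that received 2 irradiation doses of 4.25 Gy, and all recipients drank TET for the first 2 weeks. The 6 control libraries (labelled CTRL, called BCR::ABL1- here) came from recipients kept on TET for a further 2 weeks, and the 6 leukaemic libraries (labelled CML 2wk, called BCR::ABL1+ here) from recipients without TET for those 2 weeks, so both groups carried both transgenes and had been irradiated. The control is therefore defined by continued exposure to TET as well as by the absence of BCR::ABL1. The question addressed by this comparison was which transcripts differed in LSK cells shortly after BCR::ABL1 was switched on.

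Immediate early genes are transcribed within minutes of a stimulus, without the need for new protein synthesis, when kinase cascades such as RAS–MAP kinase activate transcription factors (SRF with its ternary complex partners, and CREB) that already sit on their promoters. Their mRNAs are short-lived, so their levels follow the recent history of a cell, and growth factors, cytokines, stress and the handling of tissue are all known to induce them. Several of the proteins are transcription factors of the AP-1, EGR and NR4A families, and others, such as the MAP kinase phosphatase DUSP1 and the mRNA decay factor ZFP36, act as feedback inhibitors of the response.

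The promoters of 8 of the 10 genes were in the RefSeq table used (build GRCm38.p6), and stretches of 6 are shown because they hold the cAMP-response and serum-response type letters through which these genes are known to be induced. Positions are counted back from the RefSeq transcription start, with −1 as the base before it. Capitals mark TATAAA and each TGACG in Fos, at chr12:85473750-85473889, plus strand. They mark TGACG in Fosb, at chr7:19310056-19310185, minus strand, and in Junb, at chr8:84978749-84978888, minus strand. They mark TGACG and the full palindrome TGACGTCA in Dusp1, at chr17:26508523-26508672, minus strand, CGTCA (the same letters read on the other strand) in Nr4a1, at chr15:101266766-101266845, plus strand, and a CArG box, the SRF-binding sequence, in Zfp36, at chr7:28379267-28379296, minus strand. The Zfp36 stretch lies before the RefSeq start, but GENCODE M21 places all 30 of its bases in an exon and untranslated region of a Zfp36 transcript that starts farther upstream.
Fos: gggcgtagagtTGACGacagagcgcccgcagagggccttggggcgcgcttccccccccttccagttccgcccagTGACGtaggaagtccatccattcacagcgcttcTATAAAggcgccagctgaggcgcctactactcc
Fosb: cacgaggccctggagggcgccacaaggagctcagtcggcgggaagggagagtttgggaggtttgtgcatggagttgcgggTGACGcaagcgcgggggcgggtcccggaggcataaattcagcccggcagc
Junb: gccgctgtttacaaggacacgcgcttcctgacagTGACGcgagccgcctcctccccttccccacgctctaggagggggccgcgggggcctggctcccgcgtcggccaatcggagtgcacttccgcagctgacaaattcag
Dusp1: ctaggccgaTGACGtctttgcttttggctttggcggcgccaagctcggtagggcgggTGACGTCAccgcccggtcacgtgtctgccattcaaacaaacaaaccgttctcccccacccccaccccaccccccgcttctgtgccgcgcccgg
Nr4a1: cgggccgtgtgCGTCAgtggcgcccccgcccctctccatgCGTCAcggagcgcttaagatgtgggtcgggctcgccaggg
Zfp36: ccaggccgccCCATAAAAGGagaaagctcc

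Both strands of the 250 bases before each start were searched. Bases farther upstream were not searched, and Egr1 and Ier2 were not among the 8 promoters. A gene with no match here may therefore hold one elsewhere. TGACG was found in 6 of the 8 promoters (Atf3, Fosb, Junb, Fos, Nr4a1 and Dusp1) and in 17.8% of all 32851 promoters of that length, a search added after these promoters had been read. It overlaps the palindrome TGACGTCA, which was found in Dusp1 alone of the 8, at −143 to −136, and in 1.55% of all promoters. The CArG box was found in Zfp36 alone, at −58 to −49, and in 1.47% of all promoters, and TATAAA in Fos alone, at −33 to −28, and in 12.4% of all promoters. The AP-1 sequence TGANTCA (6.75% of all promoters) and the EGR sequence GCGTGGGCG (0.536%) were in none of the 8 windows. These are matches of letters and not measured binding sites. The 10 genes lie on chromosomes 12 (Fos), 7 (Fosb and Zfp36), 4 (Jun), 8 (Junb and Ier2), 18 (Egr1), 1 (Atf3), 17 (Dusp1) and 15 (Nr4a1).

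The BCR::ABL1- libraries held 22804754 to 41832868 counts and the BCR::ABL1+ libraries 16150817 to 25070105. Each cohort was described as 6 recipients, but the labels do not tie a library to a recipient, and all recipients received cells from a single pool of DTG marrow, so p-values measure the spread between these libraries, which may be technical. Labelled sex followed the group (male in BCR::ABL1-, female in BCR::ABL1+) and so did the runs of library numbers apart from replicate 6, and neither can be told apart from BCR::ABL1 here. The design text and the methods describe recipients of both sexes and a donor pool of both sexes, so what the sex label means for these sorted donor cells is unclear. The human transgene was not counted, so the labels were not checked against it. Kit, which defines the sort, was at 681 to 800 CPM (counts scaled to library size with edgeR's TMM factors) in BCR::ABL1- and 323 to 522 in BCR::ABL1+ libraries, and Ly6a (Sca-1) at 27.2 to 38.3 and 31.4 to 74.1 CPM. Markers of other cell types differed between the groups, beside 29.0% of all genes lower and 30.6% higher: 2 of 7 B cell (close to the share of all genes), 5 of 8 neutrophil, 7 of 8 erythroid and 5 of 5 tested megakaryocyte markers were lower in BCR::ABL1+ cells, and 6 of 8 mast cell and basophil markers were higher. Their summed levels, in BCR::ABL1- and BCR::ABL1+ libraries, were 432 to 762 and 29.3 to 355 CPM (B cell), 111 to 2420 and 76 to 368 CPM (neutrophil), 62.1 to 110 and 19.7 to 53 CPM (erythroid), 276 to 322 and 90.6 to 252 CPM (megakaryocyte) and 99.5 to 199 and 425 to 2500 CPM (mast cell and basophil). The most abundant gene of each list was, in that order, Ighm, S100a9, Gata1, Itga2b and Cpa3. Ighm, at 373 to 690 and 3.04 to 296 CPM, did not itself pass the test (edgeR adjusted p = 0.0704). The B cell marker Cd79b overlapped between the groups (17 to 29 and 23.3 to 36.4 CPM). No marker on these lists was at 0 in all libraries, and their part in the results was not tested. In bulk libraries such as these, fewer cells that express a gene and less RNA of it per cell cannot be told apart.

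Most of the immediate early genes were lower in BCR::ABL1+ LSK cells. The AP-1 subunits Fos, Fosb and Jun, the nuclear receptor Nr4a1, the feedback inhibitors Dusp1 and Zfp36, and Ier2 fell between 1.33-fold and 4.19-fold, while Junb, Egr1 and Atf3 did not pass the test. That is 7 of 10 genes lower (edgeR's quasi-likelihood test, Benjamini-Hochberg adjusted p under 0.05 over all genes), where 29.0% of all genes tested were lower, 30.6% were higher and 59.5% changed in either direction. None of the 10 was higher, also at an unadjusted p under 0.05 (0 genes) and in DESeq2 (0 higher and 7 lower). The median log2 fold change of the 10 genes was −1.21, beside 0.07 for all genes. For no gene of the 10 did all BCR::ABL1+ libraries lie below all BCR::ABL1- libraries (0 of 10), a separation seen in 20.6% of all genes tested. Leaving out BCR::ABL1- replicate 2, the control library with the highest level of every gene of the 10, left 5 genes lower, and leaving out BCR::ABL1+ replicate 2 gave 8. Without replicate 6 of both groups, so that each group held a single run of library numbers, 7 were lower.

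**Figure D1:**
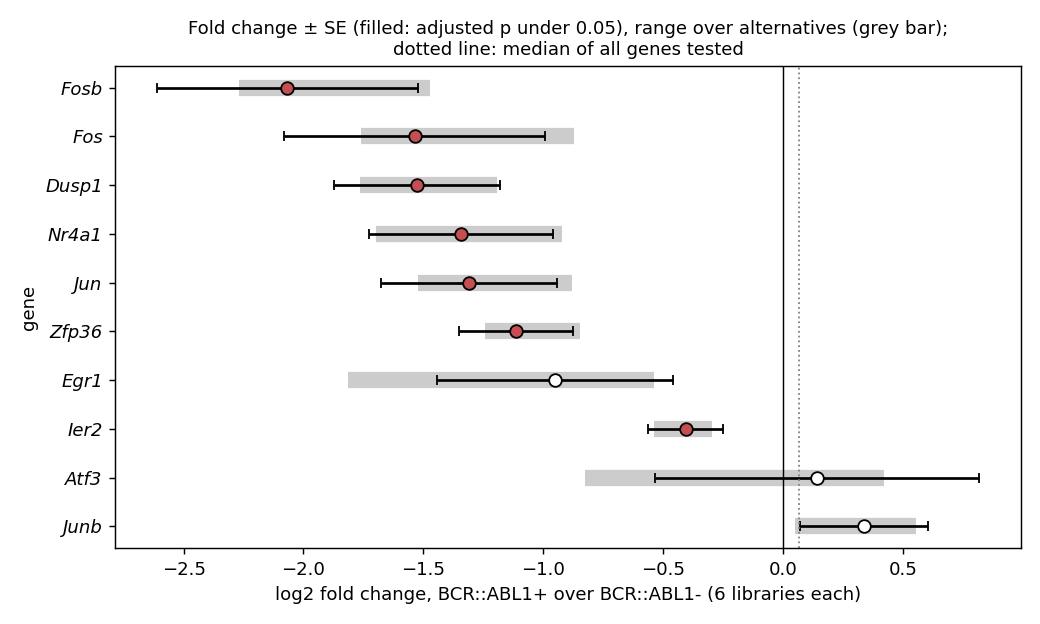
Log2 fold change, BCR::ABL1+ over BCR::ABL1- (x axis), of each of the 10 genes (y axis). Points show the edgeR estimate ± SE from 6 libraries per group, filled where the adjusted p was under 0.05, grey bars the range over the alternative settings and the dotted line the median of all genes tested; Fosb lies farthest to the left at −2.07, and Junb (0.34) and Atf3 (0.14) lie to the right of 0.

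Among the AP-1 subunits, Fos, the prototype of the family, was at 12.1, 33.7 and 128 CPM (lowest, median, highest) in BCR::ABL1- libraries and at 6.29, 15.3 and 24.6 CPM in BCR::ABL1+ libraries. All 6 BCR::ABL1+ libraries were below the control median, but only 2 were below the lowest control library. The log2 fold change was −1.54 ± 0.545 (SE, n = 6 per group; edgeR adjusted p = 0.0249), and it fell short of the threshold without BCR::ABL1- replicate 2 (−0.87, edgeR adjusted p = 0.104), BCR::ABL1+ replicate 4 (−1.38, adjusted p = 0.0519) or BCR::ABL1+ replicate 5 (−1.40, adjusted p = 0.0531). Fosb, which forms the same kind of dimer with JUN proteins, had the largest decrease of the 10, with 19.1, 44.7 and 184 CPM in controls against 3.8, 18.6 and 24.7 CPM. Its log2 fold change was −2.07 ± 0.545 (edgeR adjusted p = 0.00445), and 3 BCR::ABL1+ libraries lay below the lowest control. Without BCR::ABL1- replicate 2 it was −1.47 (edgeR adjusted p = 0.0134). Jun, the partner of both, ranged over 47.1, 90.5 and 257 CPM in controls and 24.5, 41.8 and 75.7 CPM in BCR::ABL1+ cells, where 4 libraries lay below the lowest control. Its log2 fold change was −1.31 ± 0.37 (edgeR adjusted p = 0.0065). Exons of Jun overlap the antisense gene Junos, at 1.28 to 4.12 CPM in controls, and because the strand setting of the counting was not given in the sources used here, their reads cannot be fully separated.

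Junb, a Jun relative that can oppose JUN and restrains the expansion of myeloid progenitors, had the higher median in BCR::ABL1+ cells, at 28, 43.9 and 84.9 CPM in controls and 41, 53.7 and 116 CPM in BCR::ABL1+ cells. The groups overlapped, and the log2 fold change of 0.34 ± 0.27 did not pass the test (edgeR adjusted p = 0.287). It was 0.05 without BCR::ABL1+ replicate 2 and 0.56 without BCR::ABL1- replicate 2, neither past the threshold (edgeR adjusted p = 0.846 and 0.0636). Only 1 BCR::ABL1+ library was below the control median. Exons of Junb overlap Prdx2 on the opposite strand, a peroxiredoxin gene that was higher in BCR::ABL1+ cells (131 to 157 against 189 to 323 CPM, log2 fold change 0.76 ± 0.11, edgeR adjusted p = 2.69e-05), and its part in the Junb counts was not tested. As a ratio within each library, Junb over Jun was 0.33 to 0.649 (median 0.518) in BCR::ABL1- and 0.751 to 2.22 (median 1.45) in BCR::ABL1+ cells, so the groups did not overlap. Junb over Jund was 1.19 to 1.5 in BCR::ABL1- and 2.62 to 5.09 in BCR::ABL1+ cells, again without overlap, whereas Fosb over Fos overlapped, at 1.3 to 2.25 and 0.603 to 1.65. These ratios were chosen after the values had been seen and are given with no test.

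Atf3, a stress-induced repressor of the ATF/CREB family, was barely detected, at 0.453, 0.645 and 1.07 CPM in controls and 0, 0.469 and 2.61 CPM in BCR::ABL1+ libraries. It had no counts in BCR::ABL1+ replicate 5, where 3 counts would be 0.12 CPM, and was highest in BCR::ABL1+ replicate 2. The BCR::ABL1+ libraries therefore lay on both sides of the control range. The log2 fold change of 0.14 ± 0.68 did not pass the test (edgeR adjusted p = 0.869), and it was −0.825 without BCR::ABL1+ replicate 2.

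**Figure D2:**
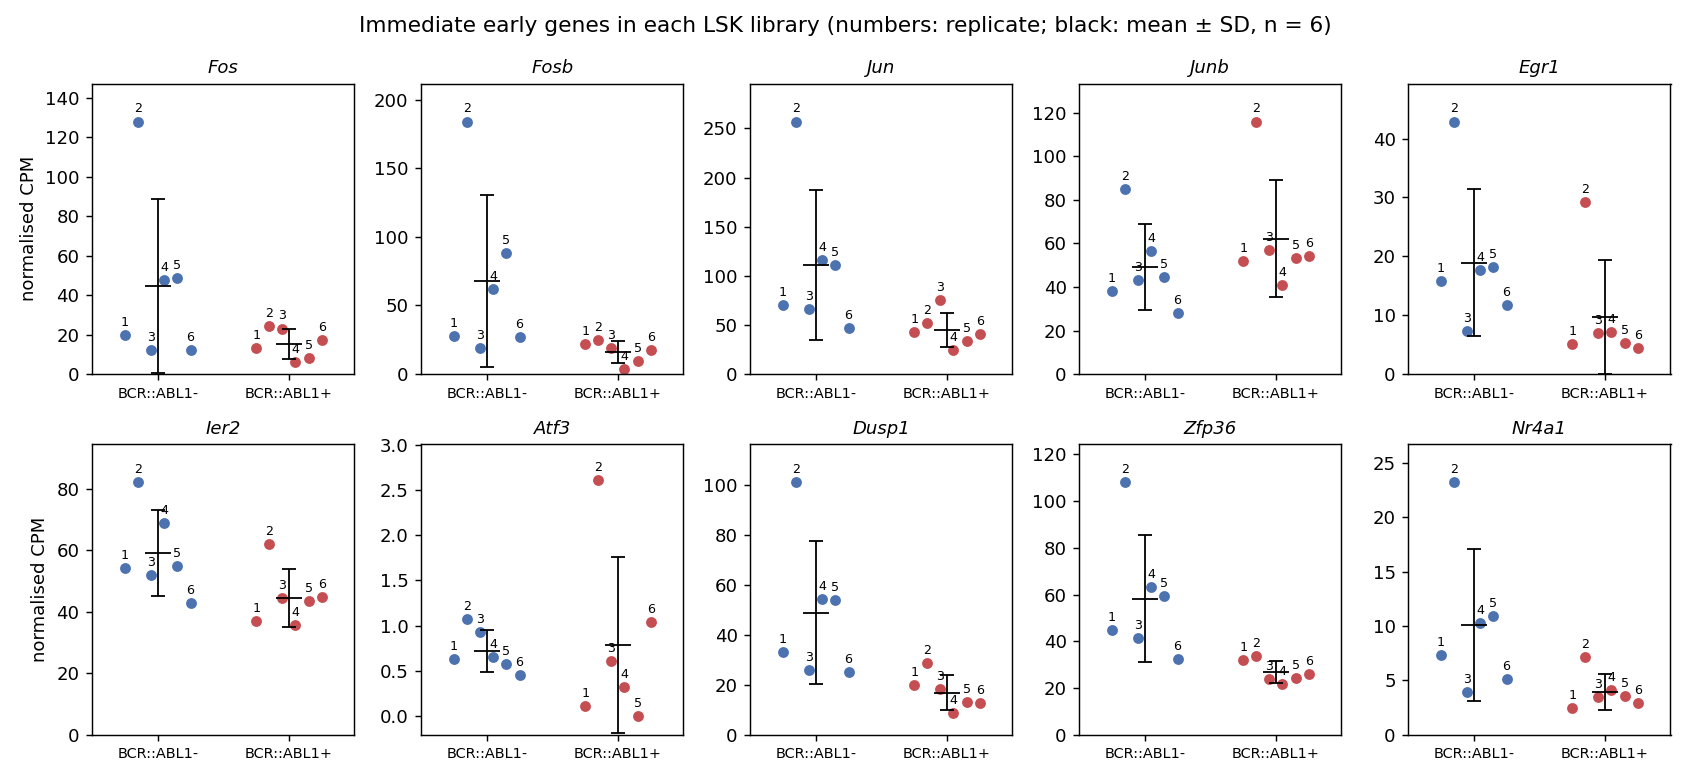
Level of each of the 10 genes (y axis, CPM, linear, a separate scale per panel) in the 6 BCR::ABL1- and the 6 BCR::ABL1+ libraries (x axis). Numbers are replicates and black marks the mean ± SD (n = 6); replicate 2 is the highest control in every panel, and replicate 2 the highest BCR::ABL1+ library in 9 of 10.

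Of the transcription factors outside AP-1, Nr4a1, an orphan nuclear receptor that restrains the proliferation of haemopoietic stem cells, was lower in BCR::ABL1+ cells. It ranged over 3.93, 8.81 and 23.2 CPM in controls and 2.49, 3.55 and 7.14 CPM in BCR::ABL1+ libraries, of which 4 were below the lowest control. The log2 fold change was −1.34 ± 0.385 (edgeR adjusted p = 0.0077). Egr1, a zinc finger factor that is likewise known for holding stem cells in quiescence and in the niche, was at 7.26, 16.7 and 42.9 CPM in controls and 4.44, 6.15 and 29.3 CPM in BCR::ABL1+ cells. Although 5 BCR::ABL1+ libraries were below the lowest control, BCR::ABL1+ replicate 2 was above all controls but one, and the log2 fold change of −0.95 ± 0.49 did not pass the test (edgeR adjusted p = 0.11). Without that library it was −1.72 (edgeR adjusted p = 0.000692), and without BCR::ABL1- replicate 2 it was −0.54 (edgeR adjusted p = 0.333).

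The feedback inhibitors had the lowest adjusted p-values of the 10 genes. Dusp1, which dephosphorylates p38, JNK and ERK, was at 25.1, 43.6 and 101 CPM in controls and 8.84, 15.7 and 28.8 CPM in BCR::ABL1+ cells. Only BCR::ABL1+ replicate 2 reached the control range, and the log2 fold change was −1.53 ± 0.35 (edgeR adjusted p = 0.00157). Zfp36 (tristetraprolin), which binds AU-rich elements and hastens the decay of cytokine and immediate early mRNAs, was at 32.4, 52 and 108 CPM in controls and 21.7, 25 and 33.9 CPM in BCR::ABL1+ cells. Again a single BCR::ABL1+ library, replicate 2, reached the control range, and the log2 fold change of −1.11 ± 0.24 had the lowest of these (edgeR adjusted p = 0.000992). Dusp1 shares exonic sequence with Ergic1 on the opposite strand (105 to 126 CPM in BCR::ABL1-, 88.2 to 115 CPM in BCR::ABL1+) and Zfp36 with Gm44710 (at most 0.941 CPM), so the same limit on strand applies to Dusp1 and Zfp36. Ier2, a small nuclear protein induced with this set, had the smallest decrease that passed, from 43, 54.5 and 82.1 CPM to 35.6, 43.9 and 62.1 CPM. The groups overlapped in 4 of the BCR::ABL1+ libraries, and the log2 fold change of −0.41 ± 0.16 (edgeR adjusted p = 0.036) did not pass without BCR::ABL1- replicate 2 or 4, or without BCR::ABL1+ replicate 1, 3, 4 or 5 (edgeR adjusted p from 0.0577 to 0.091).

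The control libraries differed from each other more in these genes than in nearly all others. Within the BCR::ABL1- group, the highest library exceeded the lowest by 10.6-fold for Fos, 9.63-fold for Fosb, 5.92-fold for Egr1, 5.9-fold for Nr4a1 and 5.46-fold for Jun, but by only 1.91-fold for Ier2. The SD of log2 CPM over the 6 control libraries had a median of 0.806 for the 10 genes and 0.144 for all genes tested. Fos and Fosb were at percentile 99.7 of all genes in that SD, and 9 of the 10 were above percentile 90. In BCR::ABL1+ libraries the median SD was 0.572 for the 10 genes and 0.302 for all genes, and only Atf3 (percentile 98.7), Fosb (91.7) and Egr1 (91.4) were above percentile 90. Zfp36 was the least variable there, at percentile 41.7, having been at 97.4 in controls. Without replicate 2, 6 of the 10 were above percentile 90 in controls (Fos at 99.3, Fosb 99.2, Nr4a1 97.6, Egr1 96.1, and Jun and Dusp1 96), while Zfp36 was at 89.4, Junb at 87.5, Atf3 at 84.5 and Ier2 at 72. Without BCR::ABL1+ replicate 2 the percentiles in BCR::ABL1+ cells moved both ways: Egr1 went to 56.6, Nr4a1 from 71.9 to 52.3, Junb from 71.5 to 31.4 and Ier2 from 47.2 to 24, whereas Fos went from 86.8 to 91.1, Fosb to 96 and Jun from 74.8 to 83.9, and Atf3 was still at 98.7.

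**Figure D3:**
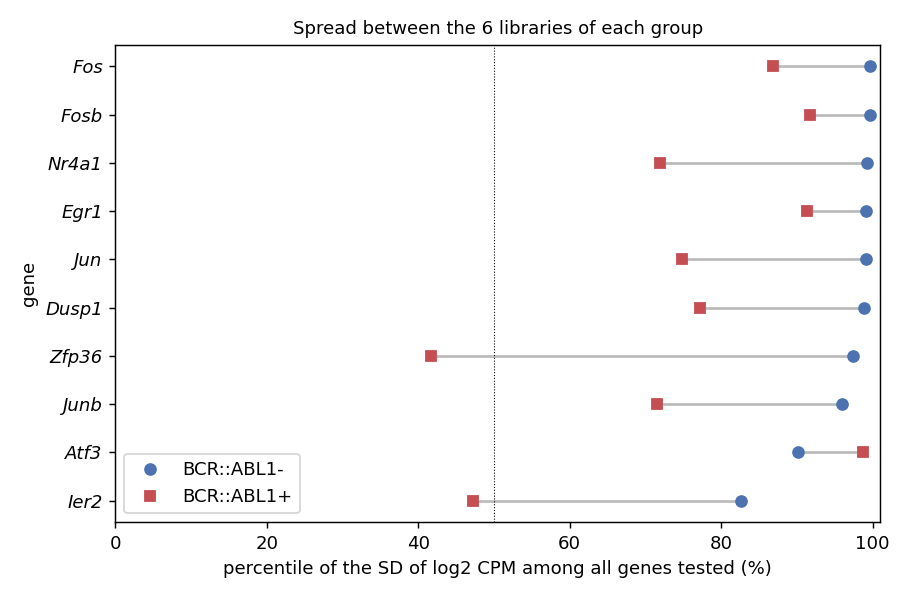
Percentile, among all genes tested, of the SD of log2 CPM between the 6 libraries of each group (x axis, %) for each of the 10 genes (y axis). The BCR::ABL1- points lie between 82.6 and 99.7, and the BCR::ABL1+ points spread from 41.7 to 98.7.

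The 10 genes varied together across libraries. BCR::ABL1- replicate 2 had the highest level of all 10 genes, BCR::ABL1- replicate 4 was second for 5 and replicate 5 for 4, and replicate 6 was the lowest for 7. Over the median of the other 5 controls, replicate 2 was 6.67-fold higher for Fosb, 6.52-fold for Fos, 3.67-fold for Jun, 3.15-fold for Nr4a1 and 3.02-fold for Dusp1, and 1.51-fold for Ier2. The mean log2 CPM of the 10 genes was 5.89 in that library and 3.89 to 4.91 in the other controls. In the BCR::ABL1+ group the mean was 4.69 in replicate 2 and 3.1 to 3.93 in the others, and replicate 2 was the highest for 9 genes (replicate 3 for Jun) and replicate 4 the lowest for 7. BCR::ABL1+ replicate 2 stood out in a different subset of genes, with 8.02-fold more Atf3 and 5.51-fold more Egr1 than the median of the other 5, but only 1.27-fold more Jun and 1.38-fold more Fosb. Other transcripts moved with these libraries. BCR::ABL1- replicate 2 had the highest summed B cell markers (762 CPM) among controls and a high level of the heat shock gene Hspa1b (43.5 CPM, beside 36.2 CPM in replicate 3 and 2.64 to 5.31 CPM in the other controls), and BCR::ABL1+ replicate 2 had the highest summed stromal markers (1080 CPM of a range from 210) and mast cell and basophil markers (2500 CPM). BCR::ABL1+ replicate 4, the lowest for 7 of the 10 genes, was second in both sums (520 and 1020 CPM). BCR::ABL1- replicate 3 had the second highest Hspa1b of the controls but the lowest level of 3 immediate early genes. The part of these transcripts in the differences between libraries was not tested.

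**Figure D4:**
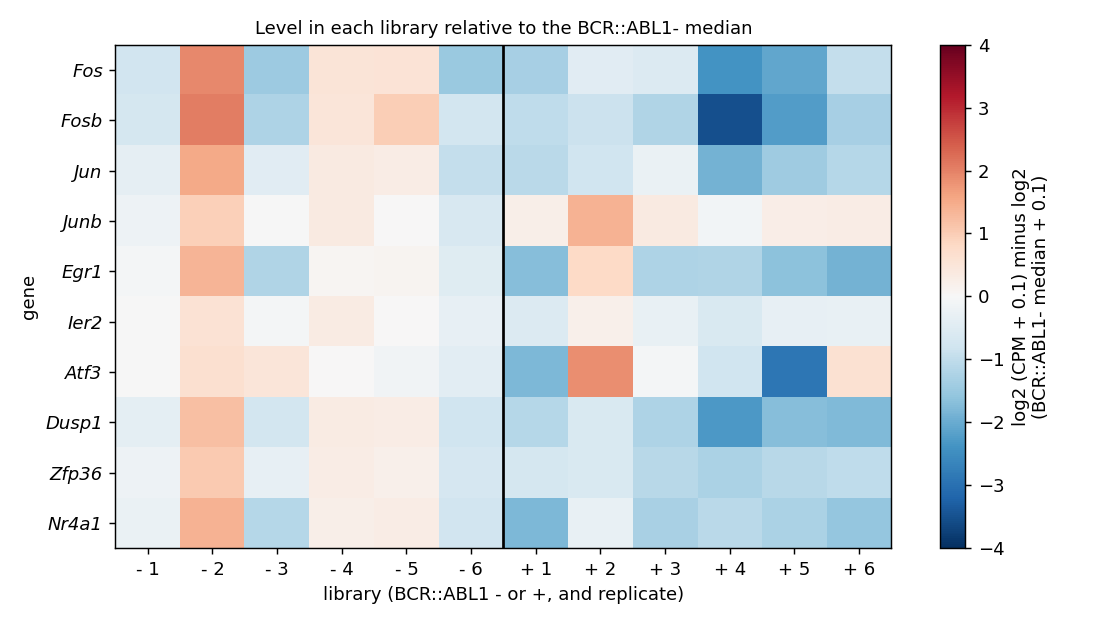
Level of each gene (y axis) in each of the 12 libraries (x axis, BCR::ABL1- or BCR::ABL1+ and replicate), as log2 (CPM + 0.1) minus log2 of the BCR::ABL1- median plus 0.1. Red is above and blue below the BCR::ABL1- median. The column of BCR::ABL1- replicate 2 is red for all 10 genes. In BCR::ABL1+ libraries Fos, Fosb, Jun, Dusp1, Zfp36 and Nr4a1 are blue throughout, while Junb is above the BCR::ABL1- median in 5 of 6.

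Within the controls, each gene was compared with the mean log2 CPM of the other 9. Pearson's r was 0.91 to 0.996 over the 6 libraries for 9 of the genes, highest for Dusp1 (0.996) and Zfp36 (0.989), and 0.5 for Atf3. Over the 6 BCR::ABL1+ libraries it was lower for most, from 0.559 for Nr4a1 to 0.905 for Junb. These are descriptions, since the libraries that set r are the same few. Outside the 10 genes, the transcript with the most similar pattern among 13433 genes, by Pearson's r with the mean of the 10 over 12 libraries after subtracting each group's mean, was Ppp1r15a (GADD34, a phosphatase subunit that relieves the block on translation in stress) at 0.947. It was followed by Plk3 (0.905), 2810013P06Rik (0.903), Zrsr1 (0.889), Gm4285 (0.88), Klf2 (0.875), Gm37352 (0.874), Rhob (0.872), ENSMUSG00000120260 (0.866) and Ttn (0.853). Without BCR::ABL1- replicate 2 and BCR::ABL1+ replicate 2, r was 0.881 for Ppp1r15a, 0.932 for 2810013P06Rik and 0.928 for Gm4285. For Plk3, Zrsr1 and ENSMUSG00000120260 it was 0.795 to 0.836. It was 0.742 for Rhob, 0.675 for Klf2, 0.619 for Gm37352 and 0.479 for Ttn. Of these 10 genes, Ppp1r15a (−1.19) and Klf2 (−1.01, edgeR adjusted p = 0.0233) were lower in BCR::ABL1+ cells. Ttn was higher (1.86, edgeR adjusted p = 1.14e-05), and the other 7 did not pass. Of all genes tested, 29.0% were lower and 30.6% higher.

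Per kilobase of merged exons (GENCODE M21 lengths), the most abundant of the 10 in controls was Ier2, with a median of 35.8 CPM per kb, followed by Jun (28.4), Junb (19.1), Zfp36 (15), Fos (14.3), Dusp1 (13.2), Fosb (7.17), Egr1 (3.73), Nr4a1 (2.51) and Atf3 (0.299). Merged exons hold every base that is exonic in any annotated transcript, and for Zfp36 (3470 bases) they cover the whole gene. The order between genes therefore depends in part on the annotation. The ranges of neighbours in this order overlapped except between Nr4a1 (1.12 to 6.6 CPM per kb) and Atf3 (0.21 to 0.497), but genes farther apart in it did not overlap, such as Ier2 (28.2 to 53.9) and Egr1 (1.62 to 9.58). Within a library the order was steadier than the ranges: each gene exceeded the next in all 6 controls, except that Ier2 exceeded Jun in 5, Zfp36 exceeded Fos in 3 and Fos exceeded Dusp1 in 3. In BCR::ABL1+ cells the order of the medians was the same apart from Jun (13.1) and Junb (23.3 CPM per kb), which changed places: Jun exceeded Junb in 6 of 6 BCR::ABL1- and 0 of 6 BCR::ABL1+ libraries. The overlap of Junb with Prdx2 on the opposite strand applies here too, and its part was not tested.

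Of 11 tested close relatives of these genes, chosen by name, 6 were lower and 1 was higher, where 29.0% of all genes were lower and 20.6% were lower without overlap. Jund, the Jun family member that is present without stimulation, was at 23.6 to 56.6 CPM in controls and 13.3 to 22.7 CPM in BCR::ABL1+ cells, without overlap (−0.94 ± 0.2, edgeR adjusted p = 0.000874). Nr4a2 was likewise lower without overlap, at 4.85 to 9.59 against 1.42 to 4.35 CPM (−1.07 ± 0.25, edgeR adjusted p = 0.00175), whereas Nr4a3 was not past the threshold (0.38, edgeR adjusted p = 0.542). The groups did not overlap for Ier5 either, a relative of Ier2 (29.1 to 49.6 against 16.9 to 27.7 CPM, edgeR adjusted p = 0.000158), nor for Zfp36l2, which like Zfp36 destabilises AU-rich mRNAs (824 to 1140 against 402 to 704 CPM, −0.93 ± 0.13, edgeR adjusted p = 2.47e-05). Zfp36l1 (−0.76, edgeR adjusted p = 0.00167) and the phosphatase gene Dusp2 (47.3 to 71.8 against 31.2 to 41.7 CPM, edgeR adjusted p = 4.32e-05) were lower too. In contrast, Egr2 was higher, although at a low level (medians of 0.379 and 0.738 CPM, 2.99 CPM in BCR::ABL1+ replicate 2, log2 fold change 1.68 ± 0.46, edgeR adjusted p = 0.00591). A gene this low in controls can pass the filter on low counts through its BCR::ABL1+ level, so the count of 1 higher is not a result about the relatives. Egr3 (1.32, edgeR adjusted p = 0.123), Fosl2 (0.02, edgeR adjusted p = 0.945) and Maff (0.32, edgeR adjusted p = 0.525) did not pass, and Fosl1 was below the filter (at most 0.385 CPM).

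The lists these relatives belong to are given beside the shares of all genes, 29.0% lower and 30.6% higher. Of 13 tested AP-1 partners, 7 were lower and 2 higher (median log2 fold change −0.31). Batf3 (−1.67), a factor of dendritic cell development, and Batf2 (−1.14) fell most besides Jund, and Batf (1.02) and Jdp2 (0.34) rose. Of 32 tested other immediate early genes, 14 were lower, 4 higher and 14 not past the threshold, with a median of −0.05, close to that of all genes (0.07). The largest decreases were in Klf4 (−1.72), Btg2, an antiproliferative gene (30.1 to 71.2 against 8.89 to 20.4 CPM, −1.70 ± 0.2, edgeR adjusted p = 5.62e-06), and Ppp1r15a. The largest increases were in Id1, an inhibitor of basic helix-loop-helix factors (0.793 to 2.08 against 6.62 to 16 CPM, 2.95 ± 0.27, edgeR adjusted p = 4.82e-07), Egr2 and Tiparp (0.92 ± 0.07, edgeR adjusted p = 7.41e-08).

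Transcripts for the machinery upstream of immediate early genes are given beside the shares of all genes, 29.0% lower and 30.6% higher. Of the 18 SRF, TCF and CREB factors and cofactors, 11 were lower and 1 higher, with a median of −0.56. The SRF coactivator Mrtfa (96.9 to 108 against 40.4 to 56.6 CPM, −1.09 ± 0.07, edgeR adjusted p = 4.92e-08) and the CREB coactivators Crtc1 (−1.06) and Crtc2 (−0.93) fell most, Srf itself fell by 0.54 on the log2 scale (53.3 to 61.6 against 34 to 47.6 CPM, edgeR adjusted p = 5.32e-05), and Atf1 rose (0.27). Of 21 tested MAP kinases and downstream kinases, 9 were lower and 5 higher (median −0.10). Map2k7 (−0.97), Mapk7, which encodes ERK5 (−0.91), and Mapk3, which encodes ERK1 (−0.73), fell most, and Mapk13 (1.49), Rps6ka3 (0.535) and Mapkapk3 (0.52) rose. Of the 12 ERK feedback genes, whose transcripts are known to follow ERK activity, 4 were lower, close to the share of all genes, and 2 higher (median −0.29). Spred3 (−0.65), Spred2 (−0.61) and Etv5 (−0.555) were lower and Phlda1 (2.25) and Etv4 (1.40) higher, both of the latter at low levels, with control medians of 0.38 and 1.62 CPM. A gene as low in controls as Phlda1 can pass the filter on low counts through its BCR::ABL1+ level. Heat shock genes, which respond to stress and handling, went both ways. Of 13 tested, 4 were higher, close to the share of all genes, led by the chaperonin genes Hspe1 (1.51) and Hspd1 (0.52) and by Hspa8 (0.79). Only 2 were lower (Hspa1a, −2.04, and Bag3, −0.45), a smaller share than the 29.0% of all genes. Hspa1a shared the uneven levels of Hspa1b among controls, with 17.3 CPM in replicate 2, 13.9 CPM in replicate 3 and 0.868 to 2.83 CPM in the rest.

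**Figure D5:**
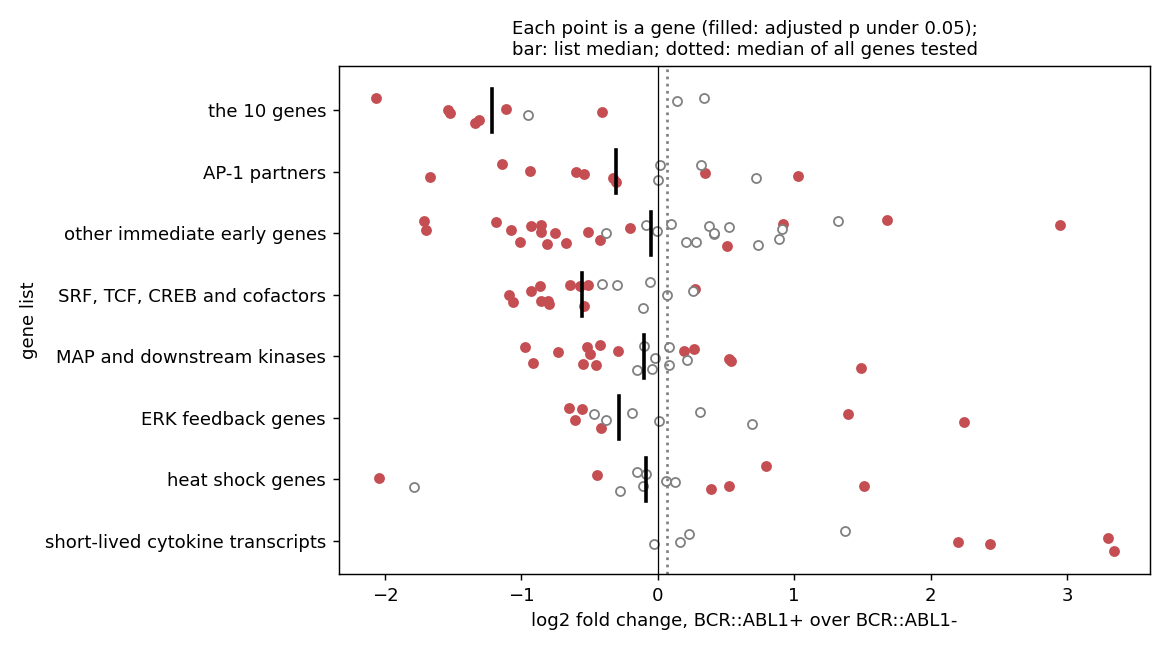
Log2 fold change, BCR::ABL1+ over BCR::ABL1- (x axis), of each tested gene in the 10 genes and 7 related lists (y axis). Filled points had an edgeR adjusted p under 0.05, black bars are list medians and the dotted line is the median of all genes tested (0.07); the bar of the 10 genes lies at −1.21, and no bar is drawn for the short-lived cytokine transcripts, of which 5 of 13 did not pass the filter on low counts.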

How the data were processed

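RNA-seq was analysed for 12 libraries of sorted LSK cells, 6 BCR::ABL1+ and 6 BCR::ABL1-, grouped by their titles. The deposited values are raw counts of reads per gene (Ensembl identifiers), 1 file per library, to which the authors applied no normalisation. The submitters' processing notes name FastQC 0.11.9, fastp 0.23.2, STAR 2.7.10a, featureCounts 2.0.1, DESeq2 1.36.0 and build mm39, whereas the study's methods name other trimming and alignment tools (Trim Galore! and HISAT2) and a human build. The annotation release and strand setting are not given in the sources used here. Counts of genes that overlap on opposite strands are uncertain for this reason, and the reference used here is GRCm38, so no coordinates are given for the counted features. Symbols were matched by identifier for 52073 of 56748 entries. No entry lacked a gene.

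Libraries held 16150817 to 41832868 counts. Where a gene had 0 counts, 3 counts were taken as the limit, which covers counting error only. No same-group pair of libraries agreed within sampling noise (lowest chi-square per degree of freedom 4.072).

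Counts were tested with edgeR 4.0.16 in R 4.3.3 (TMM factors, filterByExpr, quasi-likelihood test, 18438 genes, Benjamini-Hochberg adjustment over all of them, threshold 0.05), a procedure tested on simulated data. The SE is the absolute log2 fold change over the square root of F. CPM were TMM-scaled, and log2 CPM used a prior count of 2. Alternatives were DESeq2 1.42.0, RLE and upper-quartile factors, no filter and a stricter filter, a replicate block, a prior count of 0.5, and leaving out libraries. Leaving out BCR::ABL1+ replicates 2 and 4 together was added after seeing the data. Lists are described by counts and medians.

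The 10 genes and the lists were chosen with earlier results of these data known. Named from each list were, in each direction, the 3 past the threshold that changed most, the close relatives of the 10 genes, the sort markers, and the 10 genes most like the set between libraries (mean log2 CPM of at least 1). The genes overlapping the 10, Hspa1b and Ptgs2 were named after their values were seen. Promoters were searched with Python 3.11.15.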

Additional observations from a re-analysis of the deposited data

Results flagged for a closer look

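Each of the 10 genes was examined for a single library far from the rest in each group, 20 sets of 6 libraries in all, by comparing the gap to the nearest library with the whole range (Dixon's test). In 8 sets a library stood apart. The gaps were taken on linear CPM, not on log2 CPM. The rate of about 1 in 20 by chance, or 1 here, holds for normally distributed values and independent sets. Linear CPM with a few high libraries need not be normal, and genes that move together are not independent, so the 8 cannot be weighed against that rate. All 8 came from the same pair of libraries. BCR::ABL1- replicate 2 stood above the other controls for Fos (128 CPM, next 48.8 CPM), Jun (257 CPM, next 116 CPM), Egr1 (42.9 CPM, next 18.2 CPM) and Nr4a1 (23.2 CPM, next 10.9 CPM). BCR::ABL1+ replicate 2 stood above the other BCR::ABL1+ libraries for Junb (116 CPM, next 56.8 CPM), Egr1 (29.3 CPM, next 7.22 CPM), Ier2 (62.1 CPM, next 44.8 CPM) and Nr4a1 (7.14 CPM, next 4.12 CPM). With both libraries left out, 7 of the 10 genes were still lower in BCR::ABL1+ cells, with Egr1 past the threshold (−1.27, edgeR adjusted p = 0.000321) and Fos short of it (−1.04, edgeR adjusted p = 0.0525).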

How the results depend on the processing

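The number of the 10 genes lower in BCR::ABL1+ cells stayed within 1.5 times of 7 under all 21 alternatives, and 0 were higher in each. Fosb, Jun, Dusp1, Zfp36 and Nr4a1 passed the threshold in all 21, Fos in 16 (edgeR or DESeq2 adjusted p from 0.0115 to 0.104), Ier2 in 13 (0.00412 to 0.091), Egr1 in 4 (0.000321 to 0.333) and Junb in 0 of 21 (0.0636 to 0.846). Atf3 passed in 0 of 20 (0.224 to 0.97), since the stricter filter removed it. The estimate for Atf3 was 0.422 at most when 1 library was left out (BCR::ABL1+ replicate 5) and changed sign, from 0.14, to −0.529 with a replicate block, −0.825 without BCR::ABL1+ replicate 2, −0.045 without replicate 6 of both groups, −0.655 without replicate 2 of both groups and −0.765 without BCR::ABL1+ replicates 2 and 4. The cause was not tested. Leaving out 1 library at a time gave 5 to 8 of the 10 genes lower (5 without BCR::ABL1- replicate 2, BCR::ABL1+ replicate 4 or BCR::ABL1+ replicate 5, and 8 without BCR::ABL1+ replicate 2), 13 to 15 other immediate early genes lower and 3 to 4 higher, and 5013 to 5937 of all genes lower and 5172 to 6070 higher. The median SD of the 10 genes ranged from 0.545 to 0.89 in BCR::ABL1- and 0.381 to 0.628 in BCR::ABL1+ libraries. Replicate numbers did not pair the libraries (correlation of same-numbered libraries −0.125 to 0.0679, with replicate 1 alone best matched to its own number). With the number as a block, 7 of the 10 genes were lower, Fos being lost (edgeR adjusted p = 0.0772) and Egr1 gained (−1.12, edgeR adjusted p = 0.00152), and 5189 of all genes were lower and 4786 higher. Upper-quartile factors moved the median of all genes from 0.067 to 0.14, and Ier2 (−0.34) was then short of the threshold (edgeR adjusted p = 0.0805). Atf3, at under 1 CPM in most libraries, is limited by depth.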

Other observations

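Short-lived cytokine and signalling transcripts, many of them known to carry AU-rich elements of the kind that ZFP36 proteins bind, included some that were higher in BCR::ABL1+ cells. Of 13 on the list 8 were tested, 4 of them were higher and 4 did not pass, where 30.6% of all genes tested were higher. The other 5 were below the filter on low counts, which genes that are low in one group can pass through their level in the other, so the share is not a result about the list. Lif, a cytokine of the interleukin-6 family, ranged from 0.294 to 0.974 CPM in controls and from 1.28 to 19.1 CPM in leukaemic libraries (3.34 ± 0.57, edgeR adjusted p = 0.000149). Il6 was at 0.177 to 0.598 and 1.16 to 8.17 CPM (3.30 ± 0.5, edgeR adjusted p = 4.84e-05). Socs3, a feedback inhibitor of JAK–STAT signalling, was at 4.53 to 8.82 and 28 to 50.7 CPM (2.44 ± 0.18, edgeR adjusted p = 7.67e-08). The groups did not overlap for Lif, Il6 or Socs3, as for the 17.0% of all genes with every BCR::ABL1+ library above every control, whereas Ptgs2, which encodes cyclooxygenase-2, overlapped (0.264 to 3.21 and 1.04 to 24.7 CPM, edgeR adjusted p = 0.0383). Any relation to the lower Zfp36 and Zfp36l2 was not tested. Zfp36l2 over Zfp36 within a library was 9.16 to 28 in BCR::ABL1- and 13.6 to 29.1 in BCR::ABL1+ cells, which overlapped.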
